A study of Mus musculus with 12 samples.

Results

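Loss of Itgav, which encodes the integrin chain αv, was described in mouse CD4+ T cells driven towards the TH2 fate in culture. The description rests on 3 TH2 Itgav KO libraries and 3 TH2 control libraries of the 12 libraries in the series, and on the genes that reached 10 CPM (counts scaled to a total of 1000000 reads in genes) in at least 3 of these 6 libraries. In all, 8456 of the 26202 genes in the deposited sheet met this rule. The TH2 Itgav KO cells came from mice of the Cd4 CreERT2 line carrying a conditional Itgav allele, in which a drug-inducible Cre recombinase can remove the allele in T cells. The TH2 control cells came from Cd4 CreERT2 mice, so both groups carry the recombinase, and both lines are on the C57BL/6 background. Naïve CD4+ cells were purified from spleen by flow cytometry, held for 5 days in TH2 conditions (in the study's differentiation assays, plate-bound anti-CD3, anti-CD28, IL-2, IL-4 and an antibody to IFNγ), and live CD4+ cells were sorted for RNA. The study deleted the allele in culture with 4-hydroxytamoxifen, but the sources used here do not say how the sequenced cultures were treated. They give no age of the mice and name no gate on αv, so the KO libraries may include cells that kept the allele. The other 6 libraries are TH1 Itgav KO and TH1 control cells, used here only to ask where the TH2 change differs.

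Integrins are paired adhesion receptors of an α and a β chain. The αv chain pairs with several β chains, among them β3, and the αvβ3 receptor binds ligands that carry the RGD tripeptide, such as osteopontin and fibronectin. Bound integrins recruit talin and kindlin and signal through focal adhesion kinase to the MAP kinase and PI3K pathways. TH2 cells, which arise under IL-4, STAT6 and Gata3, are known for IL-13, IL-5 and IL-4, which act in immunity to helminths and in allergy.

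The 3 KO libraries held 10824616, 6344185 and 7259715 reads in genes, against 9425130, 8806428 and 9131526 in the 3 control libraries. At these depths a gene listed at 0 may lie at up to 0.277 to 0.473 CPM, the level of 3 reads, a floor that covers counting error only. Changes are log2 differences of CPM + 1 (KO minus control) with their standard error, which understates the change of low genes, and a gene is said to be called, or to rise or fall, where the limma adjusted p is below 0.05. Labels number the libraries without tying them to mice or cultures, and the spread behind each p-value may therefore be technical. Control 1 held 58367 CPM of Rn45s, the ribosomal RNA precursor, against 14875 to 23034 CPM in the other 5 libraries. Control 2 lay farthest from the others on the first principal component (36.9% of the variance), and the mean correlation with its own group was lowest for KO 3 among KO libraries (0.913) and for control 2 among control libraries (0.889). The T cell marker Cd4 was at 2995, 3241 and 3521 CPM in KO libraries and 3384, 3380 and 2851 CPM in control libraries. Summed B cell markers were at 26.9 to 40.1 CPM in KO and at most 49.3 CPM in control libraries, nearly all from Ebf1 and Cd79b. Myeloid markers were at 16.9 to 38.5 CPM in KO and 13.4 to 38.2 CPM in control libraries, mostly Cd68, and those of NK and CD8 T cells at 3.58 to 17.6 CPM in KO and 10.1 to 16.0 CPM in control libraries, mostly Cd8b1. All 6 mast cell and basophil markers were listed at 0, as were Lyz2, Csf1r, Cd8a and Ncr1. The TH2 markers Ptgdr2 and Il17rb were at or near 0 in all 6 libraries, while Gata3 stood at 660 to 773 CPM in KO and 761 to 831 CPM in control libraries.

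Of the 8456 genes, 68 were higher (0.804%) and 57 lower (0.674%) in TH2 Itgav KO cells, so that 125 were called (1.48%). With TMM scaling 58 were higher and 69 lower, and with Rn45s left out of the total 59 and 62, so which direction held more calls depended on the scaling. In none of the 125 did KO and control libraries overlap, a pattern that 19.1% of the 8456 genes showed in one direction or the other. The median change of all 8456 genes was 0.03 log2. Fewer cells of a type and less RNA per cell cannot be told apart in these bulk libraries. The largest falls in log2 were in B3galt2, Slc13a3, Spp1, Crabp2, Egr1, Il5, Nr4a3, Pth, Plek, Egr2, Egr3 and Sytl3, and the largest rises in Mob3c, Fam183b, Matk, Snhg16, Myo6, Bend5, Selenbp1, Phxr4, Ltb, Gpnmb, Enah and Itga4. Among called genes, measured by CPM, Inhba, Ncl and Pth lost most, and Vim, Ctla2a and Ecm1 gained most. The filter let 39 genes in through the KO libraries alone, of which Matk was called, and 29 through the control libraries alone, of which B3galt2, Nr4a3, Slc13a3 and Spp1 were called. A gene that enters in this way has to differ, so the calls of these 5 genes are a description. Just inside it lay Tmem108 and Stradb, with a third-highest value of 10.06 CPM, and just outside it Caprin2 and Rsl1, with 9.99 CPM.

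**Figure D1:**
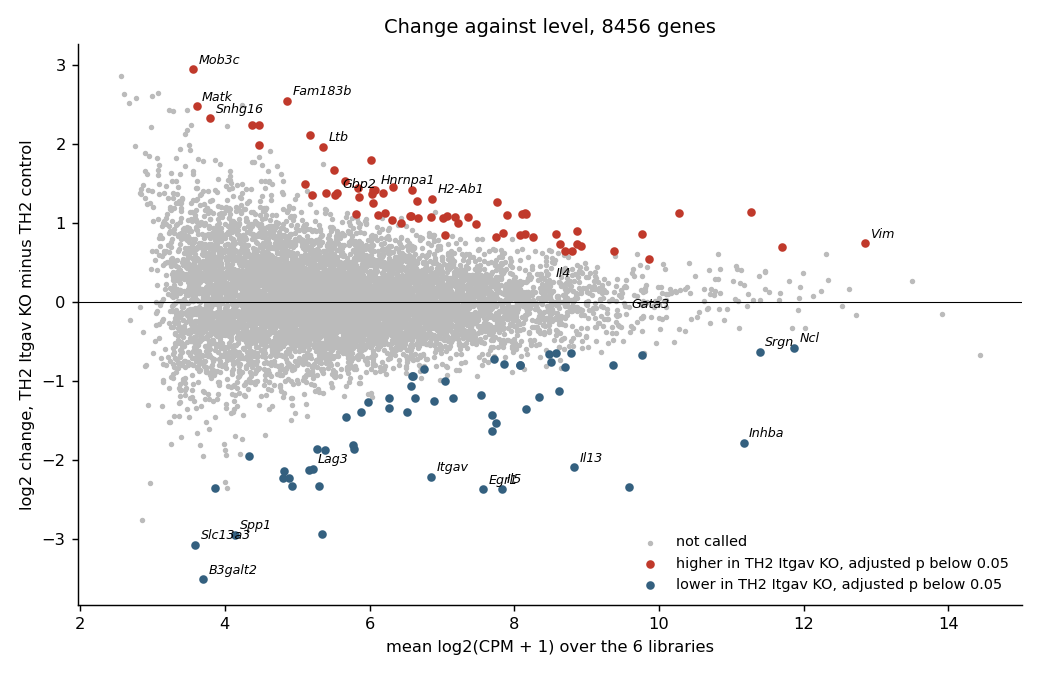
Log2 change of each of 8456 genes (TH2 Itgav KO minus TH2 control, vertical axis) against its mean log2(CPM + 1) over the 6 libraries (horizontal axis). Red points are the 68 genes higher and blue points the 57 genes lower at an adjusted p below 0.05, and grey points are the genes not called. The fall of Inhba (−1.79) stands out among abundant genes, while Gata3 (−0.15) and Il4 (0.24) are among the grey points.

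The targeted gene was examined first. Itgav (chr2:83724397-83806916, plus strand, GRCm38, protein coding) held 55.2, 43.5 and 60.5 CPM in KO libraries, against 249.5, 195 and 313 CPM in control libraries. Every KO library lay below every control library, at a KO mean of 21% of that in control (log2 −2.22 ± 0.23, adjusted p = 1.99e-05). The value covers the whole gene, so reads of exons left after deletion are part of it. Itgb3, which encodes the β3 partner (chr11:104608000-104670476, plus strand), held 182, 176 and 229 CPM in KO libraries, against 135, 64.7 and 85 CPM in control libraries, higher in each KO library (log2 1.09 ± 0.25, adjusted p = 0.0291). Its call ended without KO 1, KO 2, KO 3, control 2 or control 3 (adjusted p 0.0667 to 0.151). Itgb1, the β1 partner, had 75.1, 87.8 and 71.4 CPM in KO libraries, against 144, 128 and 102 CPM in control libraries, and was not called (log2 −0.66 ± 0.23, adjusted p = 0.176), although its groups did not overlap.

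Among the other integrin chains, 6 of 15 listed were measured above the filter, and Itga4, the α4 chain that pairs with β1 or β7, was the gene of these called. Itga4 held 60.5, 70.6 and 142 CPM in KO libraries, against 20.6, 40.7 and 28.3 CPM in control libraries (log2 1.53 ± 0.35, adjusted p = 0.0309), with KO 3 highest. The call was lost without KO 2, KO 3, control 1 or control 3 (adjusted p 0.0582 to 0.196). The log2 changes of the 5 others were −0.83 to 0.37. None of 25 integrin adaptor genes (talin, kindlin, RIAM and focal adhesion components) was called, with a median of 0.06, and their most abundant members Cd47 (0.16) and Fyb (0.47) had adjusted p = 0.65 and 0.194. Among 8 RGD ligands, Spp1, the gene of osteopontin, was the call. It held 3.51, 5.52 and 7.58 CPM in KO libraries, against 23.3, 85.8 and 54.2 CPM in control libraries (log2 −2.95 ± 0.52, adjusted p = 0.00496), a gene that entered the comparison through the control libraries alone. With voom on whole reads its adjusted p was 0.0783. Thy1, an αvβ3 ligand on T cells, held 1205, 1230 and 1167 CPM in KO libraries, against 963, 1115 and 1151 CPM in control libraries, and was not called (log2 0.16 ± 0.13, adjusted p = 0.633).

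The cytokine genes of the TH2 locus split. Il5 and Il13 fell while Il4, their neighbour on chromosome 11, was not called. Il5 (chr11:53720794-53725106, plus strand), the eosinophil growth factor, held 78.9, 73.8 and 165 CPM in KO libraries, against 337, 701 and 576 CPM in control libraries, 19.7% of the control mean (log2 −2.37 ± 0.28, adjusted p = 8.38e-05). KO 3 was the highest KO library and still lay below control 1, the lowest control library. Il13 (chr11:53631324-53634702, minus strand), which drives mucus and airway responses, held 250.3, 189 and 223 CPM in KO libraries, against 651, 1229 and 1037 CPM in control libraries, 22.7% of the control mean (log2 −2.09 ± 0.20, adjusted p = 5.84e-06). Both calls held without any 1 library. Il4 (chr11:53602982-53618669, minus strand) held 352, 267 and 634 CPM in KO libraries, against 263, 382 and 358 CPM in control libraries (log2 0.24 ± 0.24, adjusted p = 0.707). Its groups overlapped, KO 3 was the highest of the 6, and the log2 value was −0.11 without KO 3. Csf2, the gene of GM-CSF, was at 6.47, 4.1 and 7.03 CPM in KO libraries, against 13.1, 25 and 35.5 CPM in control libraries. It was not called (log2 −1.82 ± 0.55, adjusted p = 0.113), but was in the fit of all 12 libraries (adjusted p = 0.0421). Csf2 entered through the control libraries alone, so its groups had to differ and these values are a description. Of the 7 TH2 cytokine genes measured, 2 fell (0.674% of all genes did) and none rose, with a median of −0.52.

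**Figure D2:**
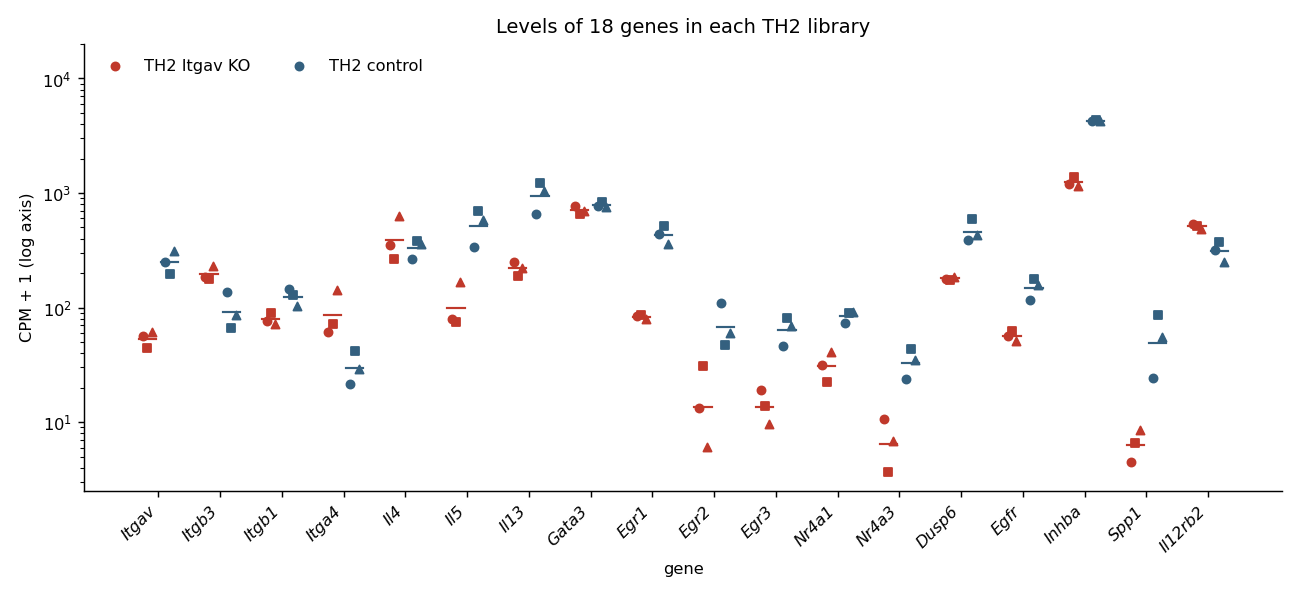
CPM + 1 of 18 genes (log axis) in each library, with TH2 Itgav KO (red) left of TH2 control (blue), circles for library 1, squares for library 2, triangles for library 3 and a bar at the geometric mean. Itgav, Il5, Il13, the Egr and Nr4a genes, Dusp6, Egfr, Inhba and Spp1 are lower in every KO library than in any control library, Itgb3, Itga4 and Il12rb2 are higher, and Il4 and Gata3 overlap.

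Genes that set TH2 identity were described next. Gata3, its master transcription factor, held 773, 660.3 and 699 CPM in KO libraries, against 768, 831 and 761 CPM in control libraries (log2 −0.15 ± 0.14, adjusted p = 0.683). Of 18 TH2 regulators and receptors, 2 rose (0.804% of all genes did) and none fell, 9 with log2 values above 0 and 9 below. They were Il4ra, the IL-4 receptor α chain, with 1121, 1130 and 1104 CPM in KO libraries, against 773, 815 and 725 CPM in control libraries (log2 0.54 ± 0.13, adjusted p = 0.0473), and Ecm1, a secreted protein that TH2 cells need to leave the lymph node, with 4917, 4100 and 3740 CPM in KO libraries, against 3188, 2232 and 2517 CPM in control libraries (log2 0.69 ± 0.15, adjusted p = 0.0193). The Il4ra call ended when any of the 6 libraries was left out (adjusted p 0.0694 to 0.174), and that of Ecm1 without KO 1, control 2 or control 3 (adjusted p 0.0779 to 0.13). In the list of TH1 genes, 3 of 14 rose (0.804% of all genes did) and none fell, 8 with log2 values above 0 and 6 below (median 0.33). The 11 not called ranged over −2.77 to 0.63 log2. Of the 6 TH1 cell markers 3 were measured, with Il12rb2 called higher and 2 with log2 values below 0 (median −0.09). Runx3, a transcription factor of TH1 and CD8 T cells, held 456, 324 and 283 CPM in KO libraries, against 233, 113 and 161 CPM in control libraries (log2 1.10 ± 0.24, adjusted p = 0.0211). Il12rb2, the inducible IL-12 receptor chain, held 539.9, 512 and 483 CPM in KO libraries, against 315, 369 and 251 CPM in control libraries (log2 0.73 ± 0.17, adjusted p = 0.0314). Lta, lymphotoxin α, held 179, 239 and 313 CPM in KO libraries, against 105, 116 and 117 CPM in control libraries (log2 1.07 ± 0.21, adjusted p = 0.0124). Each of these 3 calls was lost without some libraries: Runx3 without KO 1, control 2 or control 3 (adjusted p 0.0752 to 0.119), Il12rb2 without KO 1, KO 2, KO 3 or control 3 (adjusted p 0.0772 to 0.16) and Lta without KO 2 or KO 3 (adjusted p 0.0505 to 0.0864). The defining TH1 genes stayed below the filter. Ifng was at 2.03, 3.94 and 1.65 CPM in KO libraries, against 2.65, 23.3 and 1.75 CPM in control libraries, and Tbx21 at 0.0924, 0 and 11.7 CPM in KO libraries, against 7.21, 0.454 and 1.75 CPM in control libraries.

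Immediate early genes, which are transcribed within minutes of antigen receptor or growth factor signals, were the list with the most calls in the lower direction. Of 21 measured, 5 fell (0.674% of all genes did) and none rose. The median was −0.59, and 19 had a log2 value below 0, as did 3985 of all 8456 genes. Egr1, a zinc finger factor induced through ERK, held 84, 85 and 78.4 CPM in KO libraries, against 434, 517 and 359 CPM in control libraries (log2 −2.38 ± 0.19, adjusted p = 6.15e-07). The 3 KO values lay close together, far under the lowest control library. Its relatives Egr2 and Egr3, which restrain T cell activation, moved the same way. Egr2 held 12.3, 29.6 and 5.1 CPM in KO libraries, against 109, 46.6 and 59.1 CPM in control libraries (log2 −2.33 ± 0.49, adjusted p = 0.0193), and Egr3 held 18, 12.8 and 8.68 CPM in KO libraries, against 45.6, 80.7 and 67.8 CPM in control libraries (log2 −2.23 ± 0.39, adjusted p = 0.00454). The nuclear receptors Nr4a1 and Nr4a3, reporters of T cell receptor strength, followed. Nr4a1 held 30.8, 21.4 and 39.5 CPM in KO libraries, against 72.5, 89.3 and 90.6 CPM in control libraries (log2 −1.46 ± 0.30, adjusted p = 0.0158), and Nr4a3, which entered through the control libraries alone, held 9.61, 2.68 and 5.79 CPM in KO libraries, against 22.7, 42.2 and 33.8 CPM in control libraries (log2 −2.36 ± 0.53, adjusted p = 0.0291). Egr1 and Egr3 kept their calls without any 1 library. Egr2 lost its call without KO 3, control 1 or control 3 (adjusted p 0.0624 to 0.0854), Nr4a1 without KO 2, control 2 or control 3 (adjusted p 0.0504 to 0.0834) and Nr4a3 without KO 2, KO 3, control 2 or control 3 (adjusted p 0.0752 to 0.115). The 16 members not called, Jun, Junb, Fosl2 and Myc among them, ranged over −1.15 to 0.25 log2.

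The promoters of these genes were searched, on both strands of the 250 bases before the RefSeq start, for the CArG box that serum response factor binds, the cyclic AMP response element TGACGTCA, the AP-1 site TGANTCA and the interferon-stimulated response element core GAAANNGAAA. RefSeq promoters were held for 3 of the 5 called immediate early genes (Egr2, Nr4a1 and Nr4a3) and for Gbp2 of the 2 called interferon-stimulated genes described below. Egr2 has 5 annotated starts, 4 of which had a CArG box, but 3 of these windows overlap and hold the same box, so that 2 distinct boxes were found, and neither Nr4a gene matched any of the 4 motifs as spelled. Gbp2 had 1 response element core and 1 AP-1 site. Of 32851 promoters in the table, 1.47% held a CArG box, 1.55% the cyclic AMP element, 6.75% the AP-1 site and 2.98% the response element core. The window of 1 Egr2 start with a CArG box and that of Gbp2 are shown 5′ to 3′, with the matched bases in capitals (the CArG box in Egr2, then the AP-1 site and the response element core in Gbp2).
Egr2 (GRCm38.p6, chr10:67537619-67537868, plus strand): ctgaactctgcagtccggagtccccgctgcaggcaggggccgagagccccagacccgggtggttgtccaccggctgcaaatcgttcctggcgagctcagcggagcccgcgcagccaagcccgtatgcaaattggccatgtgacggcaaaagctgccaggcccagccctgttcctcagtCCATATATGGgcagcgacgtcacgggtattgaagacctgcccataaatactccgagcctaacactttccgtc
Gbp2 (GRCm38.p6, chr3:142620413-142620662, plus strand): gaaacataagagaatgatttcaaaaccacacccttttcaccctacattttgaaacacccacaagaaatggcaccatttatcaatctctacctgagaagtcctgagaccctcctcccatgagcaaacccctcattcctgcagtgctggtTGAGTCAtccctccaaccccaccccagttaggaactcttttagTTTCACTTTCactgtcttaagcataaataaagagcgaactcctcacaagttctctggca
A match is a description of the letters and was not tested as a site.

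Genes around the MAP kinase cascade and the antigen receptor were described next. Dusp6, a phosphatase that switches off ERK and is itself induced by ERK, held 177, 174 and 184 CPM in KO libraries, against 386, 587 and 430.3 CPM in control libraries (log2 −1.36 ± 0.18, adjusted p = 0.000275). It was the call among 12 MAP kinase feedback genes, whose median was −0.23. Egfr, the EGF receptor, which TH2 cells are known to express, held 55.1, 61.6 and 50.6 CPM in KO libraries, against 116, 178 and 157 CPM in control libraries (log2 −1.40 ± 0.24, adjusted p = 0.00375). The Egfr call was lost in the fit of all 12 libraries (adjusted p = 0.129). All 6 measured genes of the receptor, its ligands and their shedding machinery had log2 values below 0, as did 3985 of all 8456 genes. The 5 not called ranged over −1.23 to −0.32. Among 33 genes of T cell receptor signalling, Lcp2, the adaptor SLP-76, was the call, at 412, 297 and 355 CPM in KO libraries, against 509.8, 613 and 543 CPM in control libraries (log2 −0.65 ± 0.16, adjusted p = 0.0499), and it was lost without KO 2, KO 3, control 2 or control 3 (adjusted p 0.123 to 0.215). The median of that list was 0.02. Pik3cd, the lymphocyte PI3K catalytic chain, rose, with 371, 370.4 and 401 CPM in KO libraries, against 220.1, 159 and 263 CPM in control libraries (log2 0.86 ± 0.19, adjusted p = 0.0232), the call among 36 PI3K and mTOR pathway genes (median 0.13). It was lost without KO 1, KO 2, KO 3 or control 2 (adjusted p 0.0702 to 0.104).

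Surface and survival genes that accompany activation gave single calls. Lag3, an inhibitory receptor that binds MHC class II, held 21.2, 27.4 and 7.99 CPM in KO libraries, against 74.9, 71.9 and 82 CPM in control libraries (log2 −2.11 ± 0.39, adjusted p = 0.00757). It was the call among 11 CD28-family and inhibitory receptors, of which 9 had log2 values below 0, as did 3985 of all 8456 genes. Tfrc, the transferrin receptor of dividing cells, held 135, 105 and 130.2 CPM in KO libraries, against 258, 277 and 301 CPM in control libraries (log2 −1.18 ± 0.19, adjusted p = 0.00184). Il2ra, the high-affinity IL-2 receptor chain, held 7079, 5700 and 6366 CPM in KO libraries, against 6714, 7320 and 7372 CPM in control libraries, and was not called (log2 −0.17 ± 0.12, adjusted p = 0.593). The anti-apoptotic gene Bcl2l1 (Bcl-xL) held 89.4, 109 and 80 CPM in KO libraries, against 218, 223 and 204 CPM in control libraries (log2 −1.21 ± 0.20, adjusted p = 0.00273). Bcl2a1b, another member of the family, had 15.4, 10.6 and 17.8 CPM in KO libraries, against 34.2, 40.8 and 39.4 CPM in control libraries, and did not pass (log2 −1.35 ± 0.39, adjusted p = 0.0951; adjusted p = 0.00838 with all 12 libraries). It has near-identical copies in the mouse genome, so its level is uncertain. Lag3, Tfrc and Bcl2l1 kept their calls without any 1 library.

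Falls were also measured in genes of secreted proteins and of a neuropeptide receptor. Of the genes in this and the next group, Timp1, Penk, Calcrl and Vdr were chosen after their values were seen. Inhba, the activin βA chain, lost most CPM of any gene called, with 1186, 1375 and 1162 CPM in KO libraries, against 4235, 4341 and 4245 CPM in control libraries (log2 −1.79 ± 0.12, adjusted p = 1.14e-07). Values within a group lay far closer together than the groups did. Pth, parathyroid hormone, held 427, 258 and 356 CPM in KO libraries, against 1296, 2079 and 1949 CPM in control libraries (log2 −2.35 ± 0.19, adjusted p = 6.43e-07). Penk, the enkephalin precursor, held 125, 123 and 128 CPM in KO libraries, against 301, 377 and 345 CPM in control libraries (log2 −1.43 ± 0.18, adjusted p = 0.000132). Timp1, an inhibitor of matrix metalloproteinases, held 95.5, 131 and 124 CPM in KO libraries, against 299, 404 and 397 CPM in control libraries (log2 −1.64 ± 0.19, adjusted p = 8.38e-05). Calcrl, the receptor chain for CGRP and adrenomedullin, held 101, 137 and 141 CPM in KO libraries, against 366, 358 and 369.6 CPM in control libraries (log2 −1.54 ± 0.18, adjusted p = 8.91e-05). These 5 calls were kept without any 1 library.

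Of 6 measured genes that handle vitamins A and D, grouped after the values were seen, Crabp2 and Vdr fell (0.674% of all genes did). Crabp2, which carries retinoic acid to its nuclear receptor, held 8.59, 19.4 and 15 CPM in KO libraries, against 97.6, 126 and 113 CPM in control libraries (log2 −2.94 ± 0.34, adjusted p = 7.78e-05). Vdr, the vitamin D receptor, held 31.7, 41 and 16.8 CPM in KO libraries, against 145, 75.1 and 94.7 CPM in control libraries (log2 −1.81 ± 0.34, adjusted p = 0.00846). Akr1c18, which inactivates progesterone, held 191, 261 and 189 CPM in KO libraries, against 441, 466 and 573 CPM in control libraries (log2 −1.21 ± 0.18, adjusted p = 0.000989). These 3 were called without any 1 library, but in the fit of all 12 libraries Vdr (adjusted p = 0.0854) and Akr1c18 (adjusted p = 0.0833) were not. Furin, a convertase that cleaves the TGF-β precursor among others, was the call among 17 TGF-β genes, with 23, 25.2 and 12.4 CPM in KO libraries, against 57.7, 101 and 66.6 CPM in control libraries (log2 −1.86 ± 0.36, adjusted p = 0.0097), and was lost without control 2 (adjusted p = 0.0512). The 16 others ranged over −0.68 to 0.99 log2.

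The remaining genes with the largest falls were of varied kinds. B3galt2, a galactosyltransferase, held 1.29, 4.41 and 3.58 CPM in KO libraries, against 32, 53.1 and 46.7 CPM in control libraries (log2 −3.52 ± 0.54, adjusted p = 0.00143). Slc13a3, a dicarboxylate transporter, held 5.64, 4.89 and 0.826 CPM in KO libraries, against 23.1, 42.6 and 39.9 CPM in control libraries (log2 −3.08 ± 0.60, adjusted p = 0.0116), and its call ended without control 2 or control 3 (adjusted p 0.0503 to 0.0746). Both genes entered through the control libraries alone. Plek, pleckstrin, a substrate of protein kinase C, held 16.6, 18.1 and 15 CPM in KO libraries, against 76.8, 92 and 95.7 CPM in control libraries (log2 −2.34 ± 0.31, adjusted p = 0.000278). Sytl3, a Rab27 effector, spread widely, with 18.8, 12.1 and 7.3 CPM in KO libraries, against 28.4, 103 and 72.1 CPM in control libraries (log2 −2.23 ± 0.47, adjusted p = 0.0181), and was lost without KO 3, control 2 or control 3 (adjusted p 0.0883 to 0.102). B3galt2 and Plek kept their calls without any 1 library. Srgn, the core protein of secretory granule proteoglycan, was abundant and fell, with 2235, 1970 and 2295 CPM in KO libraries, against 2976, 3531 and 3577 CPM in control libraries (log2 −0.63 ± 0.13, adjusted p = 0.0143), a call lost without control 2 or control 3 (adjusted p 0.0886 to 0.102).

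Genes of the cytoskeleton were called in both directions. Vim, the intermediate filament vimentin, gained most CPM, with 9937, 10118 and 8572 CPM in KO libraries, against 5993, 5543 and 5559 CPM in control libraries (log2 0.74 ± 0.12, adjusted p = 0.00213). Myo6, an unconventional myosin, held 50.5, 44.9 and 46.4 CPM in KO libraries, against 11, 7.95 and 8.76 CPM in control libraries (log2 2.25 ± 0.40, adjusted p = 0.00529). Enah, which extends actin filaments at focal adhesions, held 75, 71.6 and 94.2 CPM in KO libraries, against 25, 21.1 and 27.6 CPM in control libraries (log2 1.66 ± 0.30, adjusted p = 0.00543). None of the 34 genes in the list of actin regulators was called, and its median was −0.09. In the lower direction, the α-tubulin genes Tuba1b and Tuba1c were called, a family chosen after the values were seen. Tuba1b held 568, 539 and 408 CPM in KO libraries, against 987, 901 and 747 CPM in control libraries (log2 −0.80 ± 0.16, adjusted p = 0.0139), and Tuba1c held 238, 245 and 324 CPM in KO libraries, against 559, 642 and 546 CPM in control libraries (log2 −1.12 ± 0.17, adjusted p = 0.000989). The 8 other tubulin genes measured were not called and ranged over −0.78 to 2.52 log2, and 0.674% of all 8456 genes fell.

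Other large rises included genes of low level in control cells. Mob3c, a kinase activator of the MOB family, held 21.3, 27.6 and 53.6 CPM in KO libraries, against 0.53, 2.61 and 12.8 CPM in control libraries (log2 2.94 ± 0.70, adjusted p = 0.0412), with control 3 well above the other control libraries. Its call ended without KO 1, KO 2, KO 3, control 1 or control 2 (adjusted p 0.0559 to 0.247). Fam183b held 73.9, 78.3 and 57.3 CPM in KO libraries, against 10.5, 10.2 and 12.4 CPM in control libraries (log2 2.55 ± 0.36, adjusted p = 0.000549), with narrow groups. Matk, a kinase that acts on Src kinases and entered through the KO libraries alone, held 21.5, 32.5 and 30.9 CPM in KO libraries, against 6.37, 1.36 and 6.9 CPM in control libraries (log2 2.48 ± 0.58, adjusted p = 0.0385). Selenbp1, a selenium-binding protein, held 72.5, 85.1 and 66.8 CPM in KO libraries, against 16.7, 10.9 and 23.9 CPM in control libraries (log2 2.12 ± 0.35, adjusted p = 0.00273). Gpnmb, a transmembrane glycoprotein, held 125, 92.7 and 149.7 CPM in KO libraries, against 29.6, 36.8 and 35.8 CPM in control libraries (log2 1.79 ± 0.27, adjusted p = 0.00103). Ctla2a, a cysteine protease inhibitor, held 3947, 2719 and 4580 CPM in KO libraries, against 1404, 1758 and 1887 CPM in control libraries (log2 1.13 ± 0.17, adjusted p = 0.00101), and its close relative Ctla2b, chosen after its value was seen, with a log2 value of 1.42 (adjusted p = 0.0121), may share reads with it, which makes the split between them uncertain. The Ctla2b call was lost without KO 1 or KO 3 (adjusted p 0.0619 to 0.0963). Bend5 held 56.4, 45.4 and 33.6 CPM in KO libraries, against 5.73, 4.43 and 23.1 CPM in control libraries (log2 2.24 ± 0.52, adjusted p = 0.0353), and Phxr4 held 22.9, 55 and 63 CPM in KO libraries, against 9.87, 6.81 and 15 CPM in control libraries (log2 1.99 ± 0.47, adjusted p = 0.0364). Fam183b, Selenbp1, Gpnmb, Ctla2a, Vim and Enah kept their calls without any 1 library, as did Tuba1c, while Matk lost its call without KO 1, KO 2, KO 3 or control 2 (adjusted p 0.0693 to 0.215), Myo6 without KO 1 (adjusted p = 0.055), Bend5 without KO 1, KO 2, KO 3, control 1 or control 2 (adjusted p 0.051 to 0.171), Phxr4 without KO 2, KO 3 or control 2 (adjusted p 0.085 to 0.209) and Tuba1b without KO 3 or control 2 (adjusted p 0.0504 to 0.0777).

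Genes that make ribosomes gave 4 of the falls. Of 40 ribosome biogenesis genes, 4 fell (0.674% of all genes did) and none rose. The median was −0.42, and 32 had log2 values below 0, as did 3985 of all 8456 genes. Ncl, nucleolin, held 3101, 3303 and 2747 CPM in KO libraries, against 4432, 4894 and 4361 CPM in control libraries (log2 −0.58 ± 0.12, adjusted p = 0.0193). Nop58, of the box C/D snoRNP, held 365, 244 and 238 CPM in KO libraries, against 401, 561 and 467 CPM in control libraries (log2 −0.77 ± 0.19, adjusted p = 0.0473). Nhp2 (log2 −0.73 ± 0.18, adjusted p = 0.0499) belongs to the box H/ACA snoRNP, and Heatr1 (log2 −0.85 ± 0.21, adjusted p = 0.0499) to the small subunit processome. None of the 4 kept its call without every library in turn: Ncl was lost without KO 3, control 2 or control 3 (adjusted p 0.0754 to 0.128) and Nop58 without KO 2, KO 3, control 2 or control 3 (adjusted p 0.131 to 0.184), Nhp2 without KO 1, KO 2, KO 3, control 2 or control 3 (adjusted p 0.107 to 0.192), and Heatr1 when any of the 6 was left out (adjusted p 0.085 to 0.148). Of 88 cytosolic ribosomal protein genes, 64 were measured and none was called. Their median was 0.16, and 52 had log2 values above 0, as did 4471 of all 8456 genes. The difference from the biogenesis genes was not tested. The abundant member Rpl4 (0.26) had adjusted p = 0.353.

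Host genes of small nucleolar RNAs, many of which share a 5′ terminal oligopyrimidine tract with the ribosomal protein genes, gave rises. Of 14 measured, 3 rose (0.804% of all genes did) and none fell. The median was 0.43, and 13 had log2 values above 0, as did 4471 of all 8456 genes. Snhg12 held 221, 192 and 219 CPM in KO libraries, against 97.7, 90.6 and 111 CPM in control libraries (log2 1.07 ± 0.19, adjusted p = 0.00632), a call kept without any 1 library. Snhg16 held 34.6, 24.3 and 32.4 CPM in KO libraries, against 4.56, 2.04 and 13 CPM in control libraries (log2 2.33 ± 0.57, adjusted p = 0.0499), and Snhg1 held 182, 152 and 197 CPM in KO libraries, against 80.4, 102 and 112 CPM in control libraries (log2 0.85 ± 0.21, adjusted p = 0.0499). The Snhg16 call was lost without KO 1, KO 2, KO 3, control 1 or control 2 (adjusted p 0.0535 to 0.197), and the Snhg1 call when any of the 6 libraries was left out (adjusted p 0.0759 to 0.18).

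No gene of the cell division lists was called. Of 40 mitosis and kinetochore genes, 35 had log2 values below 0 (median −0.42). Of 37 DNA replication genes, 33 did (median −0.36). Over all 8456 genes, 3985 had a log2 value below 0. Mki67, the proliferation marker Ki-67, held 2310, 1815 and 1806 CPM in KO libraries, against 2184, 2564 and 2669 CPM in control libraries (log2 −0.33 ± 0.14, adjusted p = 0.29), and Top2a, topoisomerase IIα, held 856, 649.6 and 752 CPM in KO libraries, against 660.1, 852 and 862 CPM in control libraries (log2 −0.07 ± 0.15, adjusted p = 0.881), with overlap in both. Rrm2 (−0.56, adjusted p = 0.252) and Mcm3 (−0.17, adjusted p = 0.693), of DNA synthesis, did not pass either. The summed level of the mitosis list was 7649, 5965 and 6431 CPM in KO libraries, against 7372, 9295 and 9175 CPM in control libraries, so control 1 lay within the KO range.

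Protein folding and amino acid supply gave 1 call between them. Of 32 chaperone genes, Calr, the calcium-binding chaperone of the endoplasmic reticulum, fell, with 196, 243 and 176 CPM in KO libraries, against 377, 424 and 282 CPM in control libraries (log2 −0.81 ± 0.19, adjusted p = 0.0385). Of the 32, 23 had log2 values below 0 (median −0.34), as did 3985 of all 8456 genes. The Calr call was lost without KO 1, KO 3, control 1 or control 2 (adjusted p 0.0692 to 0.161). None of 24 ATF4 targets was called (median −0.38), Atf4 itself at −0.08 (adjusted p = 0.872) and Asns, asparagine synthetase, at −0.37 (adjusted p = 0.326).

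Genes of sugar use and of the response to low oxygen gave rises and no fall. Of 29 measured, 3 rose (0.804% of all genes did) and none fell. The median was 0.44, and 26 had log2 values above 0, as did 4471 of all 8456 genes. Slc2a3, the glucose transporter GLUT3, held 482, 477 and 283 CPM in KO libraries, against 193, 131 and 254 CPM in control libraries (log2 1.11 ± 0.24, adjusted p = 0.0195). Egln1, the oxygen sensor PHD2 that marks HIF for decay, held 506, 535 and 501 CPM in KO libraries, against 323, 225 and 307 CPM in control libraries (log2 0.86 ± 0.17, adjusted p = 0.011). Bnip3l, a mitophagy receptor and HIF target, held 262, 282 and 313 CPM in KO libraries, against 145, 147 and 197 CPM in control libraries (log2 0.82 ± 0.19, adjusted p = 0.0302). Each was lost without some libraries: Slc2a3 without KO 1, KO 2 or control 2 (adjusted p 0.087 to 0.098), Egln1 without control 2 (adjusted p = 0.0504) and Bnip3l without KO 1, KO 2, KO 3, control 1 or control 2 (adjusted p 0.0638 to 0.13). The summed level of the list was 21220, 25010 and 18290 CPM in KO libraries, against 16810, 14930 and 16230 CPM in control libraries, higher in each KO library.

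A group of glycogen enzymes was put together after the values were seen. Gys1, glycogen synthase of muscle type, held 109.9, 184 and 124 CPM in KO libraries, against 65.7, 67.7 and 57.8 CPM in control libraries (log2 1.09 ± 0.24, adjusted p = 0.0278). Gbe1, the branching enzyme, held 62.3, 78.2 and 77.3 CPM in KO libraries, against 30.6, 25.7 and 26.7 CPM in control libraries (log2 1.36 ± 0.29, adjusted p = 0.0211). Pgm1, phosphoglucomutase, held 280.5, 289 and 189 CPM in KO libraries, against 142, 89.1 and 153 CPM in control libraries (log2 0.99 ± 0.23, adjusted p = 0.0363). Gys1 was lost without KO 2, KO 3 or control 3 (adjusted p 0.0723 to 0.205), Gbe1 without KO 1, KO 2, KO 3 or control 3 (adjusted p 0.0667 to 0.13) and with all 12 libraries (adjusted p = 0.0603), and Pgm1 without KO 1, KO 2 or control 2 (adjusted p 0.139 to 0.171). The other 9 glycogen genes measured were not called and ranged over −0.45 to 0.61 log2, and 0.804% of all 8456 genes rose. The metallothionein genes Mt1 and Mt2, which bind zinc and copper and lie side by side, rose together. Mt1 held 1783, 2193 and 1553 CPM in KO libraries, against 791, 787 and 940.5 CPM in control libraries (log2 1.12 ± 0.15, adjusted p = 0.000275), kept without any 1 library, and Mt2 held 577, 627 and 594 CPM in KO libraries, against 361, 313 and 409 CPM in control libraries (log2 0.74 ± 0.15, adjusted p = 0.0181), lost without KO 1, KO 2, KO 3 or control 2 (adjusted p 0.0528 to 0.0861).

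Interferon-stimulated genes gave 2 rises among 35 measured (0.804% of all genes rose) and no fall (median 0.16). Gbp2 and Gbp4 encode guanylate-binding proteins that act on intracellular pathogens. Gbp2 (chr3:142620602-142638008, plus strand) held 81.4, 86.7 and 59 CPM in KO libraries, against 22.2, 28.6 and 34.8 CPM in control libraries (log2 1.38 ± 0.31, adjusted p = 0.0264), and Gbp4 held 126, 108 and 165 CPM in KO libraries, against 29.4, 44.9 and 80.2 CPM in control libraries (log2 1.45 ± 0.31, adjusted p = 0.0204). Gbp2 was lost without KO 1 or KO 2 (adjusted p 0.132 to 0.16) and Gbp4 without KO 1 or KO 3 (adjusted p 0.0644 to 0.137). Isg20, an exonuclease, was low, with 23.3, 12.8 and 29.6 CPM in KO libraries, against 5.52, 0.568 and 5.37 CPM in control libraries. It did not pass (log2 2.43 ± 0.68, adjusted p = 0.0882, and 0.00279 with all 12 libraries). Isg20 entered through the KO libraries alone, so its groups had to differ and these values are a description. Among 8 MHC class II genes, H2-Ab1, a class II β chain, rose, with 157, 182 and 212 CPM in KO libraries, against 56.7, 91.6 and 75.6 CPM in control libraries (log2 1.30 ± 0.23, adjusted p = 0.00496), kept without any 1 library. Of the 8, 7 had log2 values above 0 (median 0.72), as did 4471 of all 8456 genes. Cd79a, of the B cell receptor, was at 0.647, 0 and 0 CPM in KO libraries, against 0, 0.114 and 0 CPM in control libraries, and Lyz2 and Csf1r at 0 in all 6. The B cell marker Ebf1 was at 30.1, 19.9 and 14.5 CPM in KO libraries, against 15.6, 17 and 41.4 CPM in control libraries. The myeloid marker Cd68 was at 15.8, 32.9 and 20.2 CPM in KO libraries, against 25.4, 12.9 and 32 CPM in control libraries. The part of other cells in the H2-Ab1 value was not tested.

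The SLAM family and TNF ligand lists gave 2 rises each (0.804% of all genes rose) and no fall. Of 7 SLAM family genes, Slamf7 held 427, 316 and 278 CPM in KO libraries, against 139, 95.2 and 199.9 CPM in control libraries (log2 1.27 ± 0.24, adjusted p = 0.0079). Cd48, the ligand of CD2 and 2B4, held 409, 367 and 442 CPM in KO libraries, against 213, 211 and 264 CPM in control libraries (log2 0.83 ± 0.17, adjusted p = 0.0146). Of 7 TNF family ligands, Lta and Ltb rose. Ltb, lymphotoxin β, which joins Lta in a membrane trimer, held 80, 110.0 and 57.6 CPM in KO libraries, against 35.2, 8.52 and 24.7 CPM in control libraries (log2 1.96 ± 0.42, adjusted p = 0.0205). Ccr7, the receptor that guides T cells to lymph nodes, held 599, 601 and 472 CPM in KO libraries, against 386, 322 and 359 CPM in control libraries (log2 0.64 ± 0.16, adjusted p = 0.0496). The calls were lost as follows: Slamf7 without KO 1 (adjusted p = 0.0528), Cd48 without KO 1, KO 3 or control 2 (adjusted p 0.0512 to 0.0775), Ltb without KO 1 or KO 2 (adjusted p 0.0734 to 0.138) and Ccr7 without KO 1, KO 2, control 2 or control 3 (adjusted p 0.132 to 0.192). All 8 Gimap GTPase genes, which support lymphocyte survival, had log2 values above 0 (median 0.36), as did 4471 of all 8456 genes. None was called, with Gimap4 at 0.51 (adjusted p = 0.162, and 0.0268 with all 12 libraries) and Gimap6 at 0.42 (adjusted p = 0.326).

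**Figure D3:**
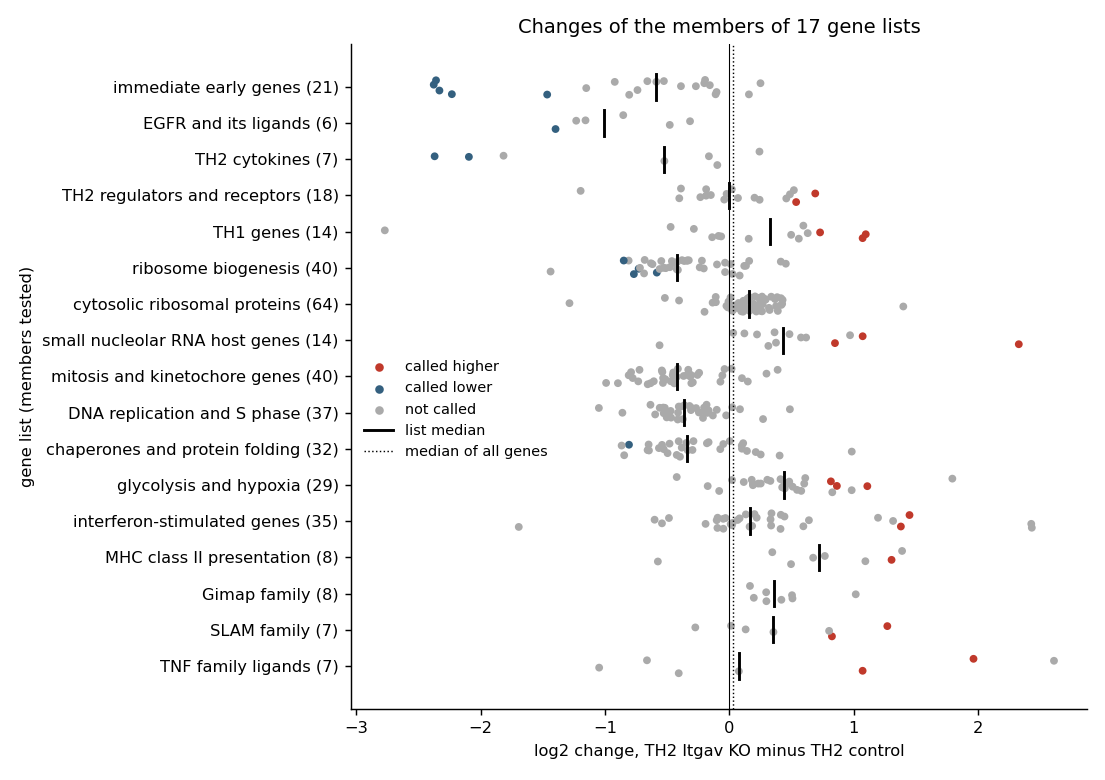
Log2 change (TH2 Itgav KO minus TH2 control) of each measured member of 17 gene lists, with the number of members in brackets. Red points were called higher, blue points called lower and grey points not called, the black bar is the list median and the dotted line the median of all 8456 genes. Immediate early genes hold 5 blue points, and the medians of the division lists lie left of 0 with no call.

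Transcription and chromatin regulators gave calls in both directions. Mxd1, a partner of Max that opposes Myc, held 70.6, 47.9 and 89.1 CPM in KO libraries, against 26.2, 19.6 and 31.1 CPM in control libraries (log2 1.38 ± 0.33, adjusted p = 0.0434). Myc was not among the genes called. Of 31 histone methyltransferase and chromatin remodelling genes, a list made after the values were seen, Nsd3, Kmt2e and Smarca2 rose and Baz1a fell. Over all 8456 genes, 0.804% rose and 0.674% fell. Nsd3, an H3K36 methyltransferase, held 1083, 1103 and 1334 CPM in KO libraries, against 669, 595 and 666 CPM in control libraries (log2 0.86 ± 0.14, adjusted p = 0.00248), kept without any 1 library. Kmt2e was at 0.71, Smarca2 at 1.10 and Baz1a at −0.80 log2. Of 19 hnRNP genes, also grouped after the values were seen, Hnrnpa2b1 (−0.65) and Hnrnpab (−0.66) fell (0.674% of all genes did). Hnrnpa1 rose, with 109, 95.5 and 127 CPM in KO libraries, against 35.8, 34.2 and 53.7 CPM in control libraries (log2 1.42 ± 0.27, adjusted p = 0.00846), but it has many near-identical pseudogene copies, so its level is uncertain. Mxd1 was lost without KO 1, KO 3, control 2 or control 3 (adjusted p 0.0653 to 0.199) and Hnrnpa1 without KO 3 (adjusted p = 0.0635). Kmt2e was lost without KO 1, KO 2, KO 3 or control 2 (adjusted p 0.0507 to 0.137), Baz1a without KO 1, KO 3, control 2 or control 3 (adjusted p 0.0667 to 0.105), Hnrnpa2b1 without KO 1, KO 2, KO 3, control 1 or control 3 (adjusted p 0.0837 to 0.203), Hnrnpab without KO 1, KO 2, KO 3, control 2 or control 3 (adjusted p 0.0778 to 0.179), and Smarca2 when any of the 6 libraries was left out (adjusted p 0.0662 to 0.26).

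Other calls were of varied function. Named for the size of their change in CPM were Ndufv3, a subunit of respiratory complex I and the call among 76 respiratory chain genes, with 889, 803 and 809 CPM in KO libraries, against 535, 556 and 513 CPM in control libraries (log2 0.64 ± 0.14, adjusted p = 0.0215), R3hdm1, with 691, 675 and 553 CPM in KO libraries, against 359.6, 266 and 418 CPM in control libraries (log2 0.89 ± 0.17, adjusted p = 0.0116), and Ybx3, a cold shock domain protein, with 748, 779.6 and 551 CPM in KO libraries, against 1189, 1044 and 1061 CPM in control libraries (log2 −0.68 ± 0.15, adjusted p = 0.0287). Ndufv3 lost its call without KO 1, KO 2, KO 3, control 2 or control 3 (adjusted p 0.0504 to 0.107), R3hdm1 without KO 1 or control 2 (adjusted p 0.055 to 0.0552) and Ybx3 without KO 3, control 1, control 2 or control 3 (adjusted p 0.0619 to 0.127). Further calls were chosen after their values were seen. Sema7a, a membrane semaphorin that binds the integrin α1β1, held 8.5, 10.2 and 9.09 CPM in KO libraries, against 32.3, 51.9 and 34.5 CPM in control libraries (log2 −1.95 ± 0.42, adjusted p = 0.0221). Phlda1, a gene induced by ERK and antigen receptor signals, held 28.5, 19.2 and 16.1 CPM in KO libraries, against 57.9, 109 and 76.8 CPM in control libraries (log2 −1.87 ± 0.34, adjusted p = 0.00608). Ntrk3, the neurotrophin-3 receptor, held 102, 101 and 109.9 CPM in KO libraries, against 36.2, 32.2 and 53.4 CPM in control libraries (log2 1.37 ± 0.27, adjusted p = 0.0115). Arid5a, an RNA-binding protein that stabilises cytokine mRNAs, held 504, 393 and 376 CPM in KO libraries, against 208, 131 and 269 CPM in control libraries (log2 1.11 ± 0.22, adjusted p = 0.0124). St3gal1, a sialyltransferase of T cell O-glycans, held 389, 374 and 328 CPM in KO libraries, against 223, 161 and 229 CPM in control libraries (log2 0.84 ± 0.18, adjusted p = 0.0204). Phlda1 kept its call without any 1 library. Sema7a lost it without KO 1, KO 2, KO 3, control 2 or control 3 (adjusted p 0.0569 to 0.104), Ntrk3 without KO 1 or KO 3 (adjusted p 0.055 to 0.0619) and with all 12 libraries (adjusted p = 0.182), Arid5a without KO 1 (adjusted p = 0.0682) and St3gal1 without KO 1, KO 2 or control 2 (adjusted p 0.0835 to 0.102).

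Position beside Itgav on chromosome 2 was then examined, since a conditional allele carries flanking DNA of the strain it was made in. Within 5 Mb of Itgav lie 18 measured genes, of which Calcrl fell and Itga4 rose, with a median of −0.21 log2. Calcrl (chr2:84330626-84425411, minus strand) starts its annotated span 0.524 Mb from Itgav, and Itga4 (chr2:79255426-79333123, plus strand) ends 4.39 Mb from it. Within 20 Mb, 89 genes were measured and the same pair was called, with a median of −0.09. Over all 8456 genes, 1.48% were called and the median was 0.03. The genetic background of this interval was not tested.

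The TH1 libraries show where the change in TH2 cells differs. The same genotypes were compared in TH1 cells, and the difference of the effects was fitted over all 12 libraries. That fit gives each gene a single variance. Mean correlations within a group were 0.889 to 0.933 in TH2 libraries and 0.951 to 0.965 in TH1 libraries. The p-values of every fit of all 12 libraries therefore draw on TH1 spread as well. For Spp1 the standard error of the difference (0.513) was below that of the TH2 change alone (0.518), while for Il13 it was above (0.610 against 0.199). The difference was called for 40 of the 8456 genes (0.473%), of which 19 are genes called in TH2 cells as well. Egr1 fell more in TH2 cells (difference −1.57 ± 0.27, adjusted p = 0.0161), since it held 81.7, 128 and 109.5 CPM in TH1 Itgav KO libraries and 174, 233 and 154 CPM in TH1 control libraries. Dusp6 fell in TH2 cells while it held 26.8, 38.2 and 29.3 CPM in TH1 Itgav KO libraries and 33.8, 24.8 and 29.7 CPM in TH1 control libraries (difference −1.45 ± 0.29, adjusted p = 0.0262). Tuba1b held 1120, 1013 and 1022 CPM in TH1 Itgav KO libraries and 721, 901 and 918 CPM in TH1 control libraries (difference −1.12 ± 0.20, adjusted p = 0.0178), higher in each TH1 Itgav KO library, and Tuba1c held 556, 564 and 562 CPM in TH1 Itgav KO libraries and 579.6, 462 and 533 CPM in TH1 control libraries (difference −1.23 ± 0.19, adjusted p = 0.0106). B3galt2 held 18.3, 13.9 and 8.05 CPM in TH1 Itgav KO libraries and 29.2, 16.9 and 18.8 CPM in TH1 control libraries, with overlap (difference −2.84 ± 0.61, adjusted p = 0.037). Spp1 held 67.6, 78.1 and 80.2 CPM in TH1 Itgav KO libraries and 115, 79.9 and 116 CPM in TH1 control libraries (difference −2.51 ± 0.51, adjusted p = 0.0272). B3galt2 and Spp1 entered through the TH2 control libraries alone, so their TH2 groups had to differ. The differences given for both are a description. Pth was at or under the floor of 3 reads in all TH1 libraries but TH1 control 2, so no change could be seen there (difference −2.36 ± 0.44, adjusted p = 0.0178).

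Rises in TH2 cells that differed from the TH1 change included receptor, ligand and metal binding genes. Ccr7 rose in TH2 cells but held 774, 784 and 706 CPM in TH1 Itgav KO libraries and 1169, 1233 and 1290 CPM in TH1 control libraries (difference 1.35 ± 0.17, adjusted p = 0.00108). Il12rb2 held 2180, 2058 and 1880 CPM in TH1 Itgav KO libraries and 2685, 3137 and 2282 CPM in TH1 control libraries (difference 1.13 ± 0.20, adjusted p = 0.0161), far above its TH2 level in both genotypes. Lta held 632, 759 and 682 CPM in TH1 Itgav KO libraries and 797, 762 and 735 CPM in TH1 control libraries (difference 1.22 ± 0.23, adjusted p = 0.0178). Mt1 (difference 1.08 ± 0.22, adjusted p = 0.0272) and Mt2 (difference 0.94 ± 0.21, adjusted p = 0.0405) rose in TH2 cells, and in TH1 cells their libraries overlapped. Phxr4 held 8.19, 1.42 and 8.4 CPM in TH1 Itgav KO libraries and 33.9, 10.5 and 13.3 CPM in TH1 control libraries (difference 3.59 ± 0.77, adjusted p = 0.037), and Nsd3 held 373, 332 and 333 CPM in TH1 Itgav KO libraries and 359, 346 and 308 CPM in TH1 control libraries, with overlap (difference 0.83 ± 0.17, adjusted p = 0.0336). The difference was not called for Il5 (adjusted p = 0.0707), Il13 (0.309), Inhba (0.401), Egfr (0.984) or Itgav (0.625). In that fit the log2 changes in TH1 cells were −0.01 ± 0.41 for Il5, −0.52 ± 0.43 for Il13 and −1.34 ± 0.14 for Inhba. They were −1.45 ± 0.51 for Egfr and −2.72 ± 0.25 for Itgav. The standard errors of the TH2 change in the 6 TH2 libraries alone were smaller. They were 0.28 for Il5, 0.20 for Il13, 0.12 for Inhba, 0.24 for Egfr and 0.23 for Itgav. TH1 levels of these genes are not given here. A p above the threshold does not show that the TH2 and TH1 effects were equal.

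**Figure D4:**
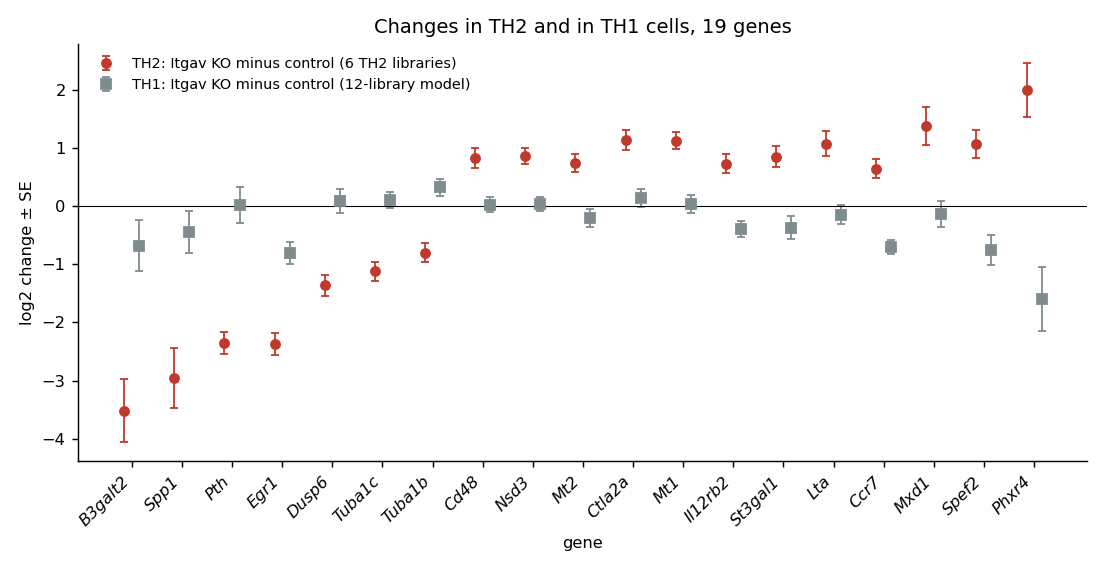
Log2 change (Itgav KO minus control, ± SE) in TH2 cells (red circles, 6 TH2 libraries) and TH1 cells (grey squares, 12-library model) for the 19 genes called in TH2 cells whose difference between the subsets was also called. Egr1 lies at −2.38 in TH2 and −0.81 in TH1 cells, and Ccr7 at 0.64 in TH2 and −0.70 in TH1 cells.

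The 125 calls differed in how far they rest on single libraries. With each library left out in turn, 38 genes were called every time: Akr1c18, B3galt2, Bcl2l1, Calcrl, Crabp2, Ctla2a, Cystm1, Dgkk, Dusp6, Egfr, Egr1, Egr3, Enah, Fam183b, Gm1966, Gpnmb, H2-Ab1, Igfbp4, Il13, Il5, Inhba, Itgav, Lag3, Mt1, Nrgn, Nsd3, Penk, Phlda1, Plek, Pth, Selenbp1, Snhg12, Spp1, Tfrc, Timp1, Tuba1c, Vdr and Vim. Among those not yet described, and chosen after their values were seen, Nrgn, a calmodulin-binding protein, held 19.1, 14.5 and 15.2 CPM in KO libraries, against 61.1, 96.4 and 69 CPM in control libraries (log2 −2.13 ± 0.33, adjusted p = 0.00176). Dgkk, a diacylglycerol kinase, held 9.7, 11.5 and 17.1 CPM in KO libraries, against 68.4, 52.9 and 54.8 CPM in control libraries (log2 −2.14 ± 0.37, adjusted p = 0.00454). Igfbp4, which binds insulin-like growth factors, held 159, 147 and 161 CPM in KO libraries, against 58.6, 83 and 52.1 CPM in control libraries (log2 1.28 ± 0.23, adjusted p = 0.00608). Of the 38, Akr1c18, Cystm1, Egfr and Vdr were not called in the fit of all 12 libraries, nor Spp1 with voom. B3galt2 and Spp1 entered through the control libraries alone, so their place among the 38 is a description. With no filter on low values 17 of the 125 calls remained, and with no variance trend 11. Il5 was among those lost, at adjusted p = 0.0636 with no filter and 0.119 with no variance trend. Il13 kept its call with no filter but lost it with no variance trend (adjusted p = 0.0698). At the other end, 6 genes lost their call whichever library was left out. Without KO 3 and control 2 together, the libraries farthest from their groups, 90 genes were called, 73 of them among the 125. Without control 1, whose Rn45s was high, 157 were called, 101 of them among the 125.

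**Figure D5:**
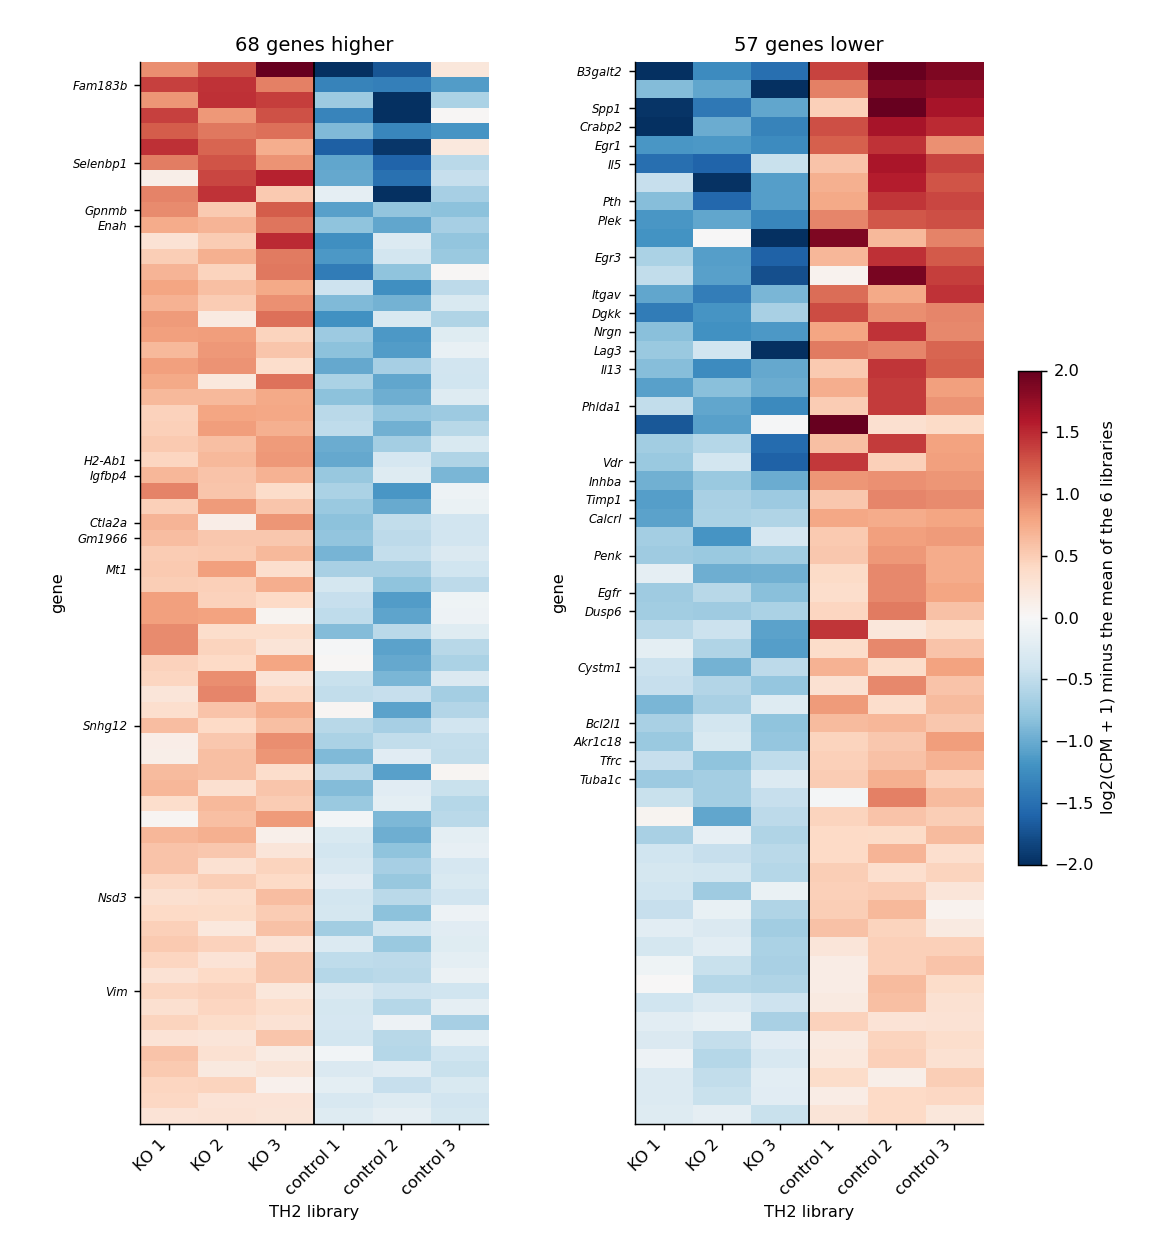
Log2(CPM + 1) of the 125 called genes in each TH2 library, minus the mean of the 6 libraries (colour scale cut at −2 and 2), with the 3 TH2 Itgav KO libraries left of the 3 TH2 control libraries. The left panel holds the 68 genes higher and the right panel the 57 genes lower, sorted by change, with names for the 38 genes called whichever library was left out. Red marks values above the gene's mean and blue values below it, and in no gene do KO and control libraries overlap.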

How the data were processed

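RNA of sorted CD4+ cells was prepared with the RNeasy Plus Micro kit, amplified with the Ovation RNA-seq System V2 and sequenced as single reads of 50 bases on an Illumina HiSeq instrument. Per the study's methods, reads were trimmed with Trim Galore 0.50, aligned with STAR 2.6.0a to GRCm38, and compared by the authors with DESeq2 1.18.1; which counter, annotation and strand setting were used is not given in the sources used here. As the unit of expression, the authors deposited CPM (counts scaled to a total of 1000000 reads in genes) plus an offset of 0.0001, which was subtracted. Values were whole multiples of 1 read, which gives the depths, and so the smallest level that could be seen. A second sheet of 12 columns was not used.

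Genes with at least 10 CPM in at least 3 of the 6 TH2 libraries were tested (8456 genes, over 98.4% of the CPM of each library). Log2(CPM + 1) was fitted with limma 3.58.1 in R 4.3.3, letting the variance follow the mean, 2-sided, with Benjamini-Hochberg adjustment over all 8456 genes. The difference of the TH2 and TH1 effects was an interaction fitted over all 12 libraries, with a single variance per gene for both subsets. Samples were grouped by their labels. The steps were run on simulated data with the same relative spread for every gene and no outlying library. These libraries differ from that, so the simulation does not show how far the calls hold here. Named genes were fixed ones, the 12 largest rises and falls in log2 among called genes with 20 CPM or more in the higher group and no overlap, the 10 largest gains and losses in CPM, and up to 5 called members of a list. For a list with no call the 2 most abundant members are given only where the report describes that list. Other names are said to be chosen after their values were seen, apart from the 38 genes named as a whole set. The members and lists were chosen with earlier results of these data known. Coordinates are of GRCm38 (GENCODE M21) and promoters of RefSeq on GRCm38.p6. Alternatives were other pseudocounts, filters, scalings and variance models, a replicate block, all 12 libraries, each library left out, and 3 chosen after seeing the data. Some results are not reported here.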

Additional observations from a re-analysis of the deposited data

Results flagged for a closer look

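For 19 genes called in TH2 cells the change also differed from that in TH1 cells by the interaction test (adjusted p below 0.05 over 8456 genes, limma). The change was lower in TH2 cells, in log2 units of TH2 minus TH1, for B3galt2 (−2.84), Spp1 (−2.51), Pth (−2.36), Egr1 (−1.57), Dusp6 (−1.45), Tuba1c (−1.23) and Tuba1b (−1.12). It was higher in TH2 cells for Cd48 (0.80), Nsd3 (0.83), Mt2 (0.94), Ctla2a (1.002), Mt1 (1.08), Il12rb2 (1.13), St3gal1 (1.21), Lta (1.22), Ccr7 (1.35), Mxd1 (1.51), Spef2 (1.83) and Phxr4 (3.59). The genes of this group were chosen because the TH2 change was called, so the count of 19 is a description. B3galt2 and Spp1 entered through the TH2 control libraries alone, so the filter set the order of their TH2 groups. Their differences are a description as well. Pth was at or near the floor of 3 reads in every TH1 library, so its difference restates the fall in TH2 cells and compares no change in TH1 cells.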

How the results depend on the processing

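No called gene turned its direction under any of the alternatives. The counts of genes higher and lower (68 and 57) fell to 3 and 14 with no filter on low values, where 15308 genes were tested, and to 3 and 9 with no variance trend. They were 191 and 151 with all 12 libraries and 147 and 137 with array weights. The fit of all 12 libraries gives each gene a single variance over TH1 and TH2 libraries, and TH1 libraries correlated more closely within their groups. Without 1 library at a time, 20 to 81 genes were higher and 31 to 76 lower, the fewest rises without KO 1 and the fewest falls without control 2. The difference between TH2 and TH1 effects (40 genes) was called for 1 gene with no variance trend. The correlations of same-numbered deviations were 0.00128, −0.058 and 0.0375, and no KO library correlated best with its own number. With 3 libraries a group, these values cannot show whether same-numbered libraries shared a mouse or culture. With a replicate block, 66 genes were higher and 57 lower, 108 of the calls were shared, and the difference between subsets was called for 25 genes. Of the genes named but not called, Il4 ranged over −0.11 to 0.52 without 1 library, turning below 0 without KO 3, and was −0.00172 without KO 3 and control 2, an alternative chosen after seeing the data; Top2a ranged over −0.20 to 0.030 without 1 library, turning above 0 without KO 2. The causes were not tested. In all, 33 of the 125 genes were called under every alternative but no filter and no variance trend. The planned count tests, edgeR and DESeq2, were not run, because a check of the unit did not accept the deposited CPM values with their offset. Once the offset was subtracted, whole reads could be recovered, so the data themselves did not prevent these tests. On the recovered reads limma with voom, added after seeing the data, called 48 genes higher and 38 lower, all 86 among the 125. With 3 libraries a group, a gene missing the threshold may still differ, and 1173 genes had an unadjusted p below 0.05.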
